A study of Mus musculus with 13 samples.

Results

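Stab1, Stab2, Lyve1, Clec4g, Kdr, Flt4, Tek, Eng, Pecam1 and Cdh5 are 10 genes by which the endothelial cells of the liver sinusoid are recognised. They were followed here across 13 expression arrays of mouse liver. Each gene had to have an array probe set annotated to its symbol and to no other, and the probe set with the highest mean stood for the gene. All 10 genes had such a probe set, 11 in all, out of 19938 genes measured in this way. All 10 also passed the filter on low levels, which is no test of detection, and changes were tested over the 14953 genes that passed it.

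The study asked how the retinoblastoma gene Rb1 shapes the liver's response to diethylnitrosamine (DEN), a carcinogen that hepatocytes activate into a DNA alkylating agent. Mice 14 days old received DEN at 20 mg/kg by intraperitoneal injection, and frozen liver was taken after 24 h. The arrays fell into 5 groups. The untreated group, with 2 arrays, came from mice with floxed Rb1 and no Cre, which the series describes as saline-injected littermates. The wild-type DEN group, with 2 arrays, had the same floxed, Cre-free genotype. The heterozygous DEN group, with 2 arrays, had 1 functional and 1 floxed allele plus Cre, and carries the tag LOH as well. The N750F DEN group had 5 arrays of RB-N750F mutants. The knockout-labelled DEN group, with 2 arrays, had floxed Rb1 with Cre. The floxed part of Rb1 is exon 19. Cre came from a transgene under the albumin promoter, generally used to recombine hepatocytes and not endothelium, so Rb1 in the endothelial cells themselves is not the usual target of the floxed genotypes. The labels do not spell out the second allele of the N750F mice in words and do not mention Cre for them. No group without DEN had any Rb1 change, so the action of a genotype in untreated liver was not measured. The labels do not say whether each array is a separate animal, so each p measures the spread among arrays, which may be technical in part. By the Y-linked genes given below, the untreated and N750F groups held both sexes and so more than 1 animal each. For the other groups this is not known.

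Liver sinusoids are lined by a fenestrated, discontinuous endothelium without a usual basement membrane. Its cells clear waste molecules from blood through scavenger receptors, present hepatocytes with plasma through open pores, and send them angiocrine signals such as Wnt and hepatocyte growth factor. Their identity depends on VEGF signalling through Kdr, on BMP9 signalling that Eng assists, and on transcription factors of the GATA, ETS and SOX families. Of the 10 genes, Stab1, Stab2, Lyve1 and Clec4g encode scavenger or lectin receptors that mark the sinusoidal lining. Kdr, Flt4 and Tek encode receptor tyrosine kinases, Eng a co-receptor, and Pecam1 and Cdh5 junction proteins shared by endothelium of all vessels.

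Levels are given as normalized log2 intensities, so a step of 1 is a 2-fold difference, and levels of different probe sets are not set against each other. The arrays formed batches by the dates in the labels' raw-file names: 9 in batch 1 and 4 in batch 2. Wild-type, heterozygous and N750F arrays lay in both batches, and untreated and knockout-labelled arrays in batch 1 alone. The sexes were unbalanced: the mean of 3 Y-linked genes was between 8.91 and 9.45 in 1 untreated, 1 N750F, both heterozygous and both knockout-labelled arrays, and between 4.44 and 4.61 in the others. The heterozygous group was thus male, the wild-type DEN group female, and the N750F group mostly female. In knockout-labelled array 2 the mean of 5 skeletal muscle genes was 7.94, against 6.49 to 6.88 elsewhere. Rb1 itself read 7.27 and 7.15 in untreated liver, 8.04 and 8.01 in wild type after DEN, 7.92 and 7.62 in heterozygous, 7.82 to 8.43 in N750F, and 7.92 and 6.57 in knockout-labelled liver. Where the Rb1 probes lie relative to exon 19 is not known here, and the levels therefore do not check the genotypes.

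Promoter windows were read for the genes on which the comparisons below turn, each running from 250 bases before to 50 bases after the start, 5′ to 3′ along the gene, from RefSeq on GRCm38.p6. Windows were matched for 7 of the 10 genes, and Lyve1, Pecam1 and Cdh5 were not matched. Capitals mark letters of 4 motifs searched on both strands, none overlapping another in the windows shown: the ETS forms CAGGAAG and CCGGAAG, the GATA form AGATAA and the SOX form ACAAAG. The scavenger receptor genes Stab1 (chr14:31168592-31168891, minus strand) and Stab2 (chr10:87007893-87008192, minus strand) are shown because their levels moved alike over the arrays while only Stab1 had a called change. The kinase receptor genes Kdr (chr5:75978406-75978705, minus strand) and Tek (chr4:94739039-94739338, plus strand) are shown because they were the pair whose levels were most correlated.
Stab1: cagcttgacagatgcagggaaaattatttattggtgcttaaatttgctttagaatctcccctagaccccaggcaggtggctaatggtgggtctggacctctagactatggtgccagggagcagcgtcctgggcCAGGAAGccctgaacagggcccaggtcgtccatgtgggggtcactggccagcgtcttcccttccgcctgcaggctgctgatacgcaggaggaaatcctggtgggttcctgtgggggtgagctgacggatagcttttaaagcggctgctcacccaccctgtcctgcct
Stab2: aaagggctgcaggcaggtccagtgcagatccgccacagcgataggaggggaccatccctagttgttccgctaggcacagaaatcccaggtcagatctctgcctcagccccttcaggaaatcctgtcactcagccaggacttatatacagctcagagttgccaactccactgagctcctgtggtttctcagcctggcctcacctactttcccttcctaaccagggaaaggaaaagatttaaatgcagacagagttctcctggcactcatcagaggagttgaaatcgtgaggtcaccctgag
Kdr: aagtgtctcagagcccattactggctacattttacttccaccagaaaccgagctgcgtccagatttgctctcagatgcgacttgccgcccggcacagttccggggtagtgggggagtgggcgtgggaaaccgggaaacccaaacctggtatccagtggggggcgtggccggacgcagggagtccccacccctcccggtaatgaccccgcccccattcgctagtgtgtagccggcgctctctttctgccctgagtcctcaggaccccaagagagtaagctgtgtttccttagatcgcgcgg
Tek: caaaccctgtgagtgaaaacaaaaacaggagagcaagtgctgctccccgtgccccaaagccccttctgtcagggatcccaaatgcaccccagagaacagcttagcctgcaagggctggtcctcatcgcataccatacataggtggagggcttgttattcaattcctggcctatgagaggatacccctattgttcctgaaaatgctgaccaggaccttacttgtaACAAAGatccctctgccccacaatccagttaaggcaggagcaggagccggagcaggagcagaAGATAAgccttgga
The Stab1 window held CAGGAAG once, beginning 117 bases before the start. The Tek window held ACAAAG beginning 26 bases before the start, and AGATAA in its last part, after the start. The windows of Stab2 and Kdr held none of the 4 motifs, nor did those of Clec4g and Flt4, and that of Eng held ACAAAG once. Kdr and Tek thus had no motif in common among those searched. CAGGAAG occurred in 1 of the 7 windows, CCGGAAG in 0, AGATAA in 1 and ACAAAG in 2. Among all 32851 windows of this length the shares were 13.3%, 8.86%, 11.2% and 18.7%. These are matches of letters only, and nothing about binding was measured.

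Stab1, Stab2, Lyve1 and Clec4g are the scavenger and lectin receptors of the lining. Stab1 encodes stabilin 1, a scavenger receptor for altered lipoproteins and matrix fragments that macrophages also make. Its level was 6.42 and 6.49 in untreated liver, 6.19 and 6.03 in wild type after DEN, and 5.84 and 5.12 in heterozygous liver. It was 6.50, 6.72, 6.63, 6.01 and 6.39 in N750F and 6.26 and 6.25 in knockout-labelled liver. Both heterozygous arrays lay below every other array. The deposited intensity behind the lowest value, 11.4, was below the offset of 16 added before the log, so changes of Stab1 are compressed there. Stab2 encodes stabilin 2, the main hyaluronan clearance receptor of the sinusoid. Stab2 read 10.38 and 10.56 untreated, 9.86 and 9.94 in wild type after DEN, 9.68 and 9.33 in heterozygous, and 9.62 and 10.14 in knockout-labelled liver. The 5 N750F arrays read 10.29, 10.21, 10.34, 9.19 and 10.02. Every array after DEN thus lay below both untreated arrays for Stab2, and N750F array 4 was the lowest of all 13.

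Lyve1, a hyaluronan receptor of sinusoidal and lymphatic endothelium, ran the other way. Its level was 8.76 and 9.12 untreated, 9.56 and 8.88 in wild type after DEN, 9.12 and 9.41 in heterozygous, 9.61, 9.61, 9.25, 9.29 and 9.64 in N750F, and 9.80 and 9.44 in knockout-labelled liver. It was the only one of the 10 genes whose group mean was lowest in untreated liver. Clec4g, a sinusoidal C-type lectin that binds pathogen and lymphocyte glycans, varied little by group. Clec4g read 7.64 and 8.09 untreated, 7.39 and 7.78 in wild type after DEN, and 7.58 and 7.51 in heterozygous liver. It read 7.20, 8.15, 7.79, 8.03 and 7.72 in N750F and 7.46 and 7.15 in knockout-labelled liver. The N750F arrays alone spanned nearly the whole range of the gene. Clec4g was the gene with a second probe set, which was dimmer, at 5.48 to 6.17.

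Kdr and Tek, both receptor tyrosine kinases, differed widely between arrays of a group. Kdr, the main VEGF receptor of endothelium, read 7.93 and 8.35 untreated, 7.90 and 6.96 in wild type after DEN, 8.05 and 6.75 in heterozygous, 8.28, 8.50, 7.87, 7.39 and 7.59 in N750F, and 7.63 and 7.14 in knockout-labelled liver. Tek, the angiopoietin receptor Tie2, read 6.61 and 7.06 untreated, 7.12 and 5.32 in wild type after DEN, 7.37 and 5.56 in heterozygous, 6.86, 7.63, 7.37, 6.47 and 5.94 in N750F, and 6.60 and 5.85 in knockout-labelled liver. In the wild-type and heterozygous groups the low array of each pair was the one of batch 2 for both genes. Flt4, the VEGF-C receptor that sinusoidal and lymphatic cells carry, ranged from 5.62 to 6.33 over the 13 arrays, and its groups overlapped their neighbours in the order.

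Eng encodes endoglin, the co-receptor through which endothelium senses BMP9. It read 7.48 and 7.03 untreated, 6.30 and 6.23 in wild type after DEN, 6.13 and 5.92 in heterozygous, 5.99, 7.00, 6.66, 5.87 and 5.34 in N750F, and 6.44 and 5.91 in knockout-labelled liver. All 11 DEN arrays lay below both untreated arrays, N750F array 2 by the least. Cdh5, the VE-cadherin of endothelial adherens junctions, had the same separation. Cdh5 read 9.16 and 8.68 untreated, 7.82 and 7.88 in wild type after DEN, 7.65 and 6.49 in heterozygous, 7.89, 8.29, 8.17, 7.50 and 7.76 in N750F, and 8.08 and 8.64 in knockout-labelled liver. The second knockout-labelled array came within a small margin of the untreated ones, and heterozygous array 4 stood far below the rest. Pecam1, the junctional adhesion molecule CD31 that leukocytes use to cross vessel walls, read 7.38 and 7.20 untreated, 6.70 and 6.20 in wild type after DEN, and 6.64 and 6.60 in heterozygous liver. It read 7.33, 7.38, 7.16, 7.41 and 6.66 in N750F and 7.38 and 6.82 in knockout-labelled liver, so most N750F arrays were at the untreated level.

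**Figure D1:**
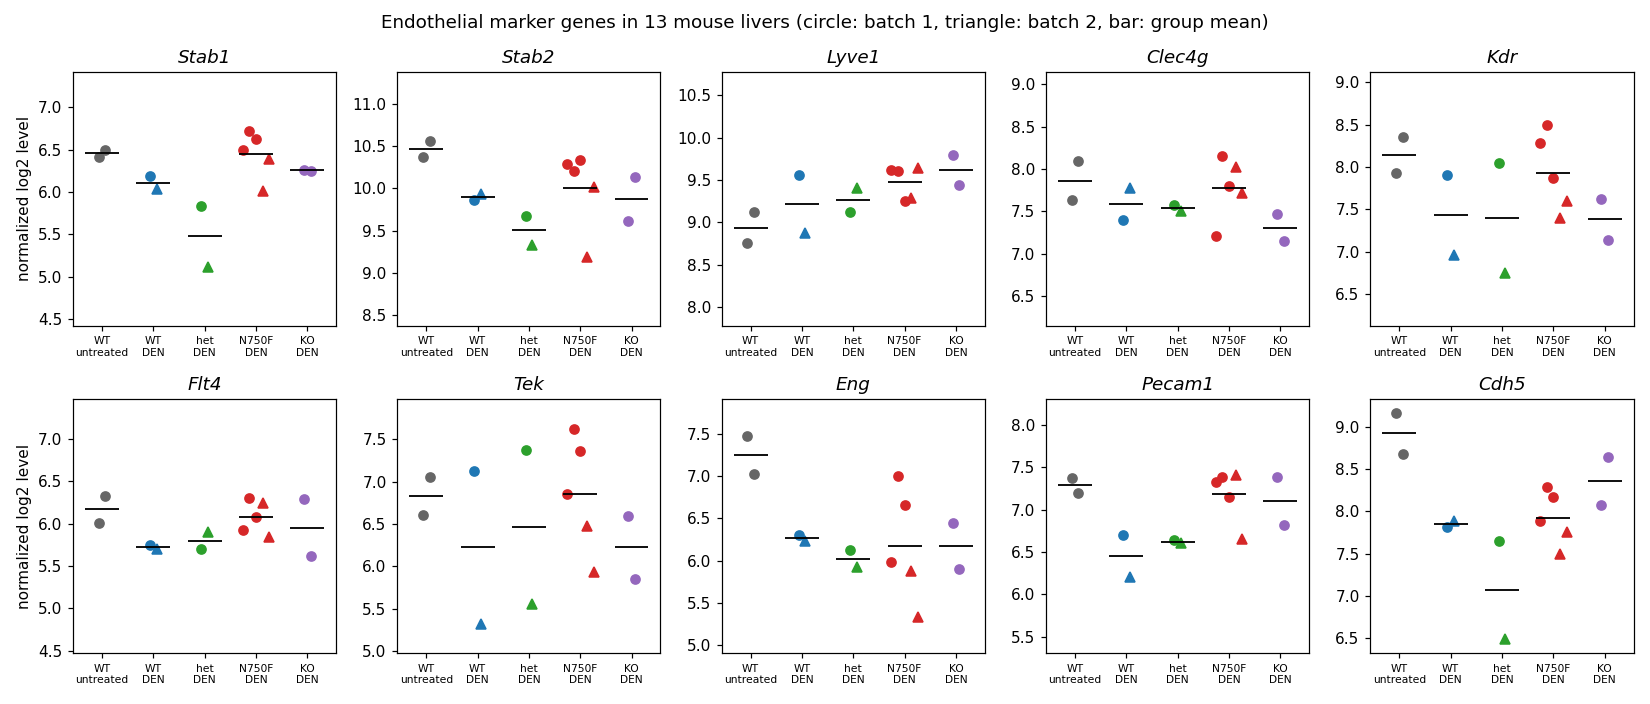
Normalized log2 level of each of the 10 endothelial marker genes (1 panel a gene) in each of the 13 arrays, by group, with a circle for each batch 1 array, a triangle for each batch 2 array and a bar for the group mean. Cdh5 and Eng lie highest in the 2 untreated arrays (Cdh5 at 9.16 and 8.68, Eng at 7.48 and 7.03), Lyve1 does not, and heterozygous array 4 is lowest for Stab1 at 5.12 and for Cdh5 at 6.49.

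Untreated liver had the highest group mean for 8 of the 10 genes, the exceptions being Lyve1, highest in knockout-labelled liver at 9.62 ± 0.25 (SD, n = 2), and Tek, highest in N750F at 6.85 ± 0.68 (SD, n = 5) beside 6.83 ± 0.31 (SD, n = 2) untreated. Heterozygous liver had the lowest mean for 4 genes: Stab1, Stab2, Cdh5 and Eng. For Cdh5 the order ran from untreated at 8.92 ± 0.34 through knockout-labelled at 8.36 ± 0.40, N750F at 7.92 ± 0.32 and wild type at 7.85 ± 0.05 to heterozygous at 7.07 ± 0.82 (SD, n = 5 for N750F and 2 otherwise). Only the first and last steps of that order separated the arrays without overlap. For Stab1 untreated and N750F were level, at 6.46 ± 0.05 and 6.45 ± 0.28, and heterozygous stood last at 5.48 ± 0.51. For Eng untreated liver at 7.25 ± 0.32 was followed by 4 means between 6.02 and 6.27 whose arrays overlapped. Over all 10 genes, 32 of 40 neighbouring pairs of groups in these orders overlapped. Each order was set from these same values. Neither this count nor that of highest means was taken over all genes, so neither sets the 10 genes apart.

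The first question was how DEN liver of each genotype differed from untreated liver. These 4 comparisons share the same 2 untreated arrays, so their likeness is not evidence of its own. The changes below are log2 changes with standard errors from limma, fitted over all 13 arrays with a batch term, with p-values adjusted by Benjamini and Hochberg over the 14953 genes. Because of the batch term they can differ from the plain difference of group means. In wild type 8 of the 10 genes had changes below 0 and the median change was -0.36, beside -0.02 over all genes. That median was -0.20 without untreated array 2 and -0.59 without the batch term. None passed the adjusted threshold of 0.05 in limma, where 0.689% of all genes did. At an unadjusted p under 0.05, 2 of the 10 did, beside 13.7% of all genes: Cdh5 at -0.81 ± 0.33 (adjusted p = 0.294) and Pecam1 at -0.70 ± 0.30 (adjusted p = 0.323). The arrays of 7 genes lay below untreated without overlap, as did 23.5% of all genes.

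In heterozygous liver Cdh5 fell by 1.59 ± 0.33 on the log2 scale (95% interval -2.31 to -0.88, adjusted p = 0.034 in limma). It was the 1 member called among the 10, where 1.4% of all genes were called and 0.729% were called lower. Within batch 1, the only batch with untreated arrays, the difference was -1.27 and rests on 1 heterozygous array. The call depended on single arrays: leaving out 1 array ended it in 7 of 13 cases. Dropping untreated array 1 gave an adjusted p of 0.295, and dropping untreated array 2 gave 0.0613. The adjusted p became 0.0545 on removal of heterozygous array 3 and 0.216 on removal of heterozygous array 4, where the change was -1.27. It was 0.0518, 0.0524 and 0.0579 without N750F arrays 2, 3 and 5, which enter this comparison through the shared batch term and spread. The call also ended with the Y-linked genes in the model (-1.58, adjusted p = 0.0905), both heterozygous arrays being male and the untreated ones 1 of each sex. It ended without the batch term (-1.85, adjusted p = 0.0525) and with the labels' replicate number as a block (-1.60, adjusted p = 0.485), though that number did not pair the arrays. The next changes in size were Eng at -0.94 ± 0.39 (adjusted p = 0.257), Stab1 at -0.77 ± 0.25 (adjusted p = 0.151) and Stab2 at -0.75 ± 0.32 (adjusted p = 0.278). The median of the 10 was -0.47, beside -0.04 for all genes (-0.70 without the batch term), and 7 genes were lower without overlap, beside 26.6% of all genes.

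Between N750F and untreated liver 6.21% of all genes were called, in a comparison with 5 arrays on the N750F side. Of the 10 markers 0 passed in limma, a share near that over all genes, with 3 of 10 at an unadjusted p under 0.05, beside 22.2% of all genes. Cdh5 was at -0.79 ± 0.28 (adjusted p = 0.104), Eng at -0.85 ± 0.32 (adjusted p = 0.135) and Lyve1 at 0.58 ± 0.25 (adjusted p = 0.186). The 10 genes divided evenly, 5 changes lying below 0, with a median of -0.04 that took either sign among the alternative settings and stood beside -0.06 over all genes. Without overlap 3 genes were lower, Stab2, Cdh5 and Eng, and 1 was higher, Lyve1, beside 14.5% lower and 10.9% higher among all genes. Knockout-labelled liver had 0 members called in limma, beside 0.0869% of all genes, and 3 at an unadjusted p under 0.05, beside 9.48%. These were Eng at -1.08 ± 0.37 (adjusted p = 0.355), Kdr at -0.76 ± 0.29 (adjusted p = 0.415) and Lyve1 at 0.68 ± 0.29 (adjusted p = 0.453). The median was -0.56, beside -0.02, with 9 of 10 changes below 0. Without knockout-labelled array 2, whose muscle genes were high, the changes were -0.81 for Eng, -0.51 for Kdr and 0.86 for Lyve1, and the median was -0.32. The median was -0.36 without untreated array 2 and -0.26 with the Y-linked genes in the model.

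Read gene by gene, Cdh5 was among the changes at an unadjusted p under 0.05 in 3 of the 4 comparisons and Eng in 3, and no gene was in all 4. In liver as a whole, fewer endothelial cells and less RNA per cell cannot be told apart. The 95% intervals in these 4 comparisons reached a median of 0.56 to 0.67 to either side. Over all 10 comparisons the range was 0.54 to 0.67. Changes smaller than that could not be told from 0 for most of the genes.

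**Figure D2:**
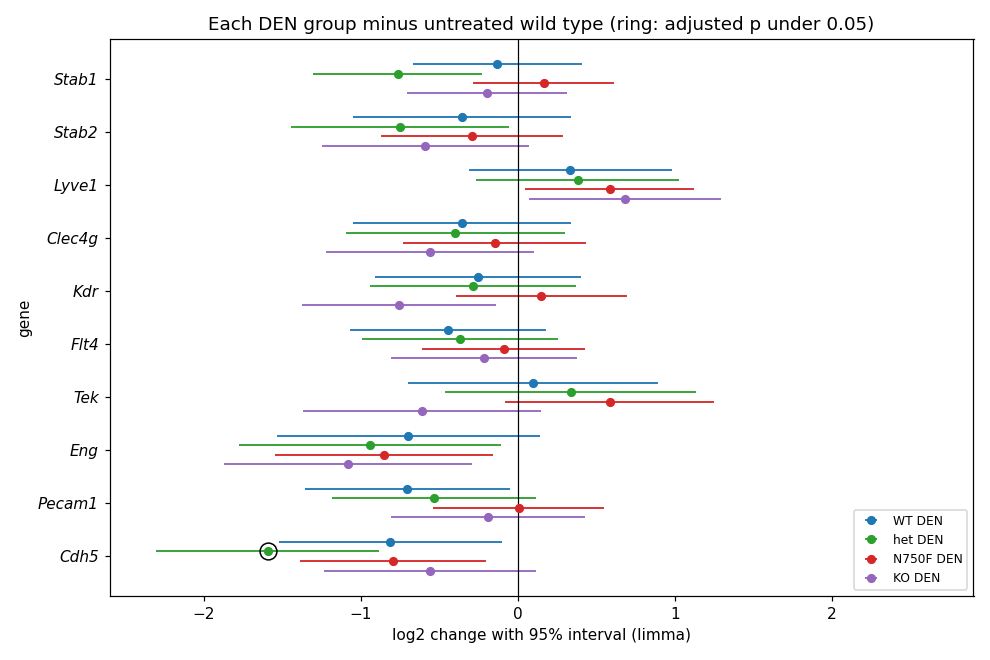
log2 change from untreated liver (x axis, with 95% intervals from limma) of the 10 endothelial marker genes (y axis) in the 4 DEN groups, with a ring where the adjusted p is under 0.05. The 1 ring is Cdh5 in heterozygous liver at -1.59, and the intervals of Lyve1 clear 0 on the right in N750F at 0.58 and in knockout-labelled liver at 0.68.

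The second question was how the genotypes differed after DEN. Stab1 was higher in N750F than in heterozygous liver, by 0.93 ± 0.20 on the log2 scale (95% interval 0.50 to 1.36, adjusted p = 0.0309 in limma). It was 1 of the 10 called, where 1.64% of all genes were called and 1.3% were called higher. The difference was 0.78 within batch 1 and 1.08 within batch 2. Leaving out 1 array ended this call in 7 of 13 cases as well. The adjusted p was 0.0507 without either untreated array, 0.0781 without heterozygous array 3, 0.679 without heterozygous array 4 (change 0.75), and 0.08, 0.0664 and 0.088 without N750F arrays 2, 3 and 5. Both heterozygous livers were male and 4 of the 5 N750F livers female by the Y-linked genes. When the mean of the Y-linked genes was added to the model the change was 0.82 with an adjusted p of 0.364. Cdh5 at 0.80 ± 0.26 (adjusted p = 0.221) and Pecam1 at 0.54 ± 0.24 (adjusted p = 0.424) also lay above 0 in this comparison. No change was below 0 among the 10, and the median was 0.36, beside -0.01 over all genes.

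In the other genotype comparisons limma called none of the 10 genes. Between N750F and wild type 1 gene had an unadjusted p under 0.05, where 14.7% of all genes did and 1.42% were called: Pecam1 at 0.71 ± 0.24 (adjusted p = 0.196), with 0.59 in batch 1 and 0.83 in batch 2. Pecam1 was near the untreated level in N750F liver and at its lowest in wild type after DEN. Between heterozygous and wild type 2 genes did, beside 6.88% of all genes, with 0.00669% called. Stab1 was at -0.63 ± 0.24 and Cdh5 at -0.78 ± 0.31, both with an adjusted p of 0.717. The batches gave unequal sizes for these, -0.35 in batch 1 and -0.92 in batch 2 for Stab1, and -0.17 and -1.39 for Cdh5, each batch holding 1 array of either group. Heterozygous array 4 lay below heterozygous array 3 for both genes. Both heterozygous arrays were male and both wild-type DEN arrays female by the Y-linked genes, so genotype and sex cannot be told apart in this comparison.

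Knockout-labelled and heterozygous liver differed at an unadjusted p under 0.05 in 3 of the 10 genes, beside 9.62% of all genes, with 0 called by limma and 0.301% of all genes called. Cdh5 was at 1.03 ± 0.33 (adjusted p = 0.294), Stab1 at 0.57 ± 0.25 (adjusted p = 0.493) and Tek at -0.95 ± 0.37 (adjusted p = 0.417). Without knockout-labelled array 2 these were 0.75, 0.57 and -0.57. For Tek the plain group means lay closer, at 6.22 in knockout-labelled and 6.46 in heterozygous liver. Only 1 heterozygous array, at 7.37, shares the batch of the knockout-labelled arrays. Between N750F and knockout-labelled liver 2 genes had an unadjusted p under 0.05, beside 12.2% of all genes. Limma called 0 of the 10 there and 0% of all genes. The 2 genes were Tek at 1.19 ± 0.31 (adjusted p = 0.239) and Kdr at 0.91 ± 0.25 (adjusted p = 0.25). These were the receptor kinases of angiopoietin and VEGF, and the arrays of both groups overlapped for each. Both genes had called batch differences, given below, and knockout-labelled arrays lay in batch 1 alone. The plain group means lay closer than these changes. They were 6.85 in N750F and 6.22 in knockout-labelled liver for Tek, and 7.93 and 7.38 for Kdr. Both knockout-labelled arrays were male and most N750F arrays female by the Y-linked genes. Without knockout-labelled array 1 the Tek change was 1.57 with an adjusted p of 0.0409, and without array 2 it was 0.82 for Tek and 0.66 for Kdr, both with an adjusted p of 1. Between knockout-labelled and wild-type liver 0 of the 10 were called by limma, beside 0.0468% of all genes, and 0 had an unadjusted p under 0.05, beside 8.55%. A single test for any difference among the 5 groups called none of the 10 in limma, where 2.89% of all genes were called. By that test 4 genes had an unadjusted p under 0.05, beside 19.7% of all genes: Cdh5 (adjusted p = 0.096), Stab1 (0.106), Tek (0.186) and Kdr (0.199).

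**Figure D3:**
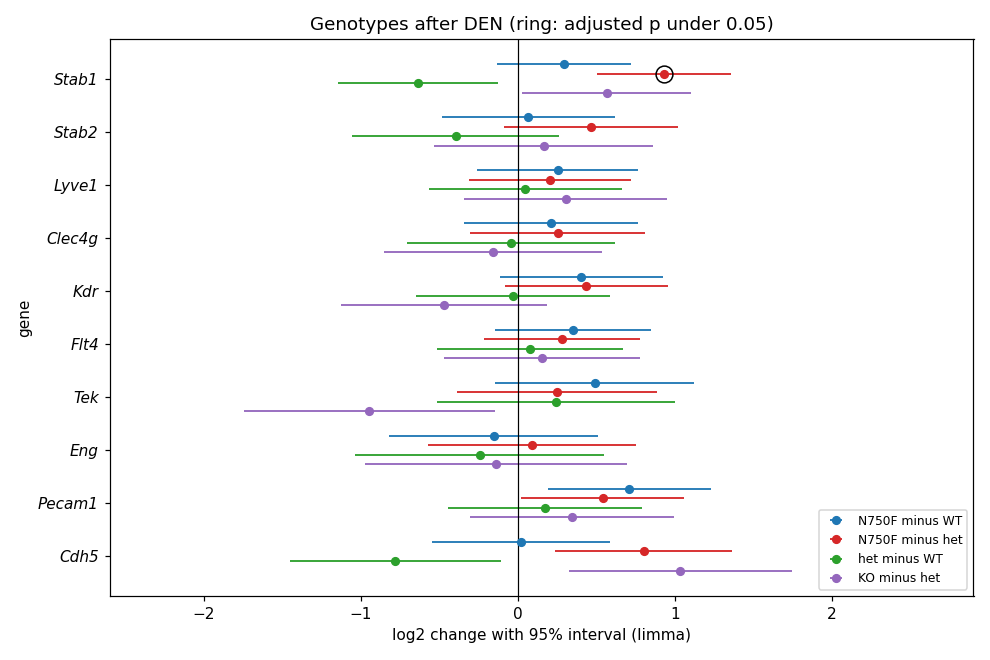
log2 change between genotypes after DEN (x axis, with 95% intervals from limma) of the 10 endothelial marker genes (y axis) in 4 of the 6 comparisons, with a ring where the adjusted p is under 0.05. The 1 ring is Stab1 in N750F against heterozygous liver at 0.93, and the intervals of Stab1 and Cdh5 also lie to the left of 0 in heterozygous against wild type.

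The array batches differed for 2 of the 10 genes. Tek was lower in batch 2 by a log2 difference of -1.41 ± 0.24 (adjusted p = 0.00332 in limma) and Kdr by -0.90 ± 0.19 (adjusted p = 0.00952). Across all genes 14.6% were called for batch. The difference was -0.43 ± 0.16 for Stab1 (adjusted p = 0.0864) and 0.002 ± 0.186 for Flt4. What the batches differ in beyond the date is not given in the sources used here.

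The 10 genes were then set against each other. Over the 13 arrays, which share batch and group differences, the 45 pairs had a median Pearson r of 0.42, and 16 pairs exceeded 0.5. The closest pair was Kdr and Tek at 0.89, the genes with called batch differences, and it fell to 0.54 after group and batch means were taken out. Pecam1 and Flt4 reached 0.79 and kept 0.72. Stab1 and Cdh5 had an r of 0.77 and kept 0.67, Stab1 and Stab2 had 0.77 and kept 0.58, and Stab2 and Cdh5 had 0.78 and kept 0.43. All 4 pairs with an r below 0 included Lyve1, out of 9 pairs with that gene, the lowest at -0.45 with Eng. Within group and batch 18 pairs lay below 0, of which 5 included Lyve1. Stab2 and Pecam1 went from 0.22 to -0.88, Stab2 and Tek from 0.34 to -0.68, and Stab1 and Pecam1 from 0.53 to -0.67. Within group and batch the median over the 45 pairs was 0.13, with 7 residual degrees of freedom behind each value. The markers were thus less alike once group and batch means were removed.

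**Figure D4:**
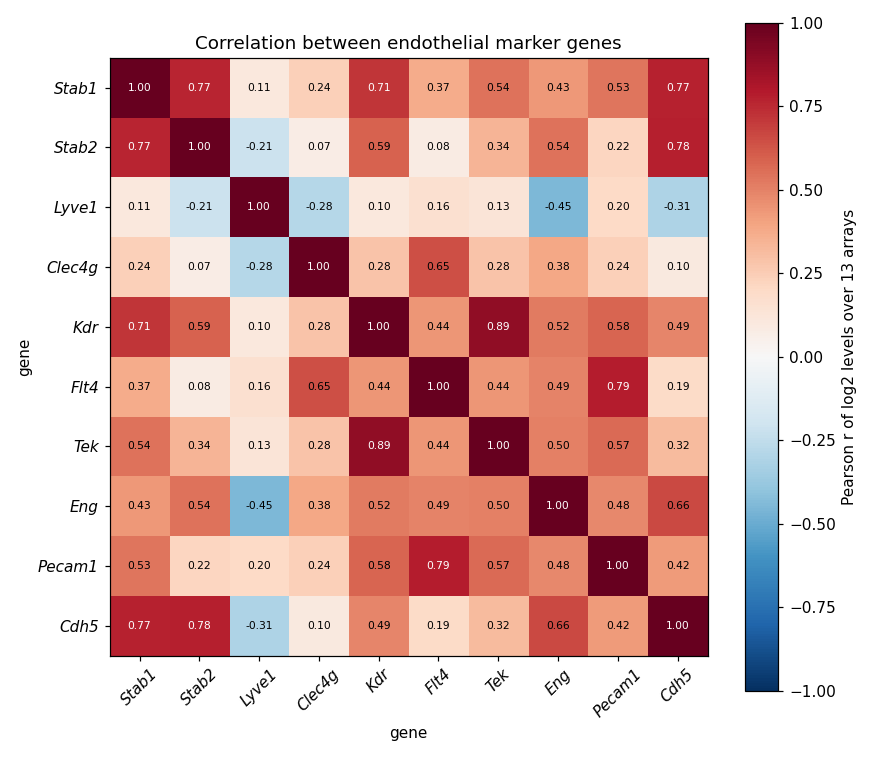
Pearson r of normalized log2 levels between each pair of the 10 endothelial marker genes over 13 arrays (colour from -1 to 1, value in each cell). Kdr and Tek share the darkest cell off the diagonal at 0.89, and the blue cells are the 4 pairs of Lyve1.

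A mean over the 10 standardized genes was also set against each of 13741 other genes that passed the filter (Xist, Y-linked genes, small RNAs and loci known only by prediction were left out), to name those whose pattern over the 13 arrays was most like it. The 10 highest were Ptprk and Fn1 (r = 0.942 each), Tgoln1 (0.934), Decr1 (0.933), Cmah (0.926), Snd1 (0.926), Abca9 (0.922), Hipk2 (0.915), Itih1 (0.912) and Etfdh (0.91). In all 137 genes, 0.997%, exceeded 0.8, and the median over genes was 0.11. None of these 10 is on an endothelial list used here. By list, the median r to the mean of the 10 genes was 0.49 for hepatocyte and 0.41 for stellate cell genes, and 0.37 for other sinusoidal, 0.31 for Kupffer cell and 0.29 for pan-endothelial genes. Fn1 encodes fibronectin and Itih1 a plasma protein, both made in quantity by hepatocytes, and Decr1 and Etfdh encode mitochondrial enzymes of fatty acid oxidation.

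Other genes of the same pathways and cells give the setting. Of 16 genes of VEGF and angiopoietin signalling, the ligands and receptors around Kdr, Flt4 and Tek, 14 were tested and limma called 0 in any of the 10 comparisons. Over all genes limma called 0% to 6.21%, depending on the comparison. At an unadjusted p under 0.05 there were 1 to 5 of the 14 per comparison, beside 6.88% to 22.2% of all genes. The median changes against untreated were -0.11, -0.27, -0.02 and -0.00 in wild type, heterozygous, N750F and knockout-labelled liver. Tie1, the orphan partner of Tek, was at -1.21 ± 0.34 in wild type (adjusted p = 0.129). Of 16 tested genes of BMP9 and endoglin signalling, around Eng, 2 rose in N750F against untreated and 0 fell, where 6.21% of all genes were called, with a list median of 0.14, and none was called in the other comparisons. They were Bmpr1a, a type I receptor gene, up by 1.55 ± 0.30 (adjusted p = 0.0166), and Bmpr2, a type II receptor gene, up by 1.10 ± 0.28 (adjusted p = 0.0351). Bmpr1a and Bmpr2 are also made by hepatocytes. Acvrl1, another receptor gene of the list, was not called. It read 6.78 and 6.82 untreated and lower in N750F, at 4.86 to 6.50. Of the 16 changes in N750F against untreated, 9 lay above 0 and 7 below. The Bmpr1a call was lost without untreated array 1 (adjusted p = 0.259) and without N750F array 3 (0.0533). The Bmpr2 call was lost in 6 of 13 leave-outs: untreated array 1 (0.343) or 2 (0.0946), either heterozygous array (0.0552), and N750F array 2 (0.0699) or 3 (0.0878).

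Genes on the list of other sinusoidal endothelial genes moved in both directions. Which cells of the liver held their RNA was not measured. Gpr182, a sinusoidal receptor that binds chemokines, fell in 3 of the 4 DEN groups and did not pass in knockout-labelled liver. It read 9.29 and 9.03 untreated, 7.14 and 7.06 in wild type after DEN, 7.47 and 7.69 in heterozygous, 7.38, 7.22, 7.14, 7.62 and 8.07 in N750F, and 7.09 and 8.47 in knockout-labelled liver. The log2 change was -2.24 ± 0.39 in wild type (adjusted p = 0.0249 in limma), -1.76 ± 0.39 in heterozygous (0.0433) and -1.82 ± 0.32 in N750F (0.0115). Of 18 tested genes Gpr182 was the 1 called in wild type, where 0.689% of all genes were, and in heterozygous liver, where 1.4% were. The wild-type call was lost without untreated array 1 (0.25), untreated array 2 (0.062) or wild-type array 4 (0.142), the heterozygous call in 11 of 13 leave-outs (0.0503 to 0.296, all but the knockout-labelled arrays), and the N750F call without untreated array 1 (0.201). In N750F 4 further genes of the 18 tested rose, so that 5 of 18 were called where 6.21% of all genes were, with a list median of 0.30 beside -0.06 over all genes: the Wnt amplifier Rspo3 by 1.18 ± 0.24 (adjusted p = 0.0183), the mannose receptor Mrc1 by 0.86 ± 0.21 (0.0332), thrombomodulin, Thbd, by 2.08 ± 0.54 (0.0385), and Oit3 by 0.76 ± 0.21 (0.0474). Rspo3 was lost without untreated array 1 (0.237) or 2 (0.0742) or N750F array 3 (0.0583). Mrc1 was lost without untreated array 1 (0.277) or 2 (0.15) or N750F array 1 (0.0511), 2 (0.0768) or 3 (0.0615). Thbd was lost in 10 of 13 leave-outs (0.0525 to 0.241, all but N750F array 4 and the knockout-labelled arrays) and Oit3 in 11 (0.0523 to 0.347, all but the knockout-labelled arrays). In N750F arrays Rspo3 read 8.12 to 8.49, Mrc1 10.2 to 10.7, Thbd 8.12 to 8.69 and Oit3 7.34 to 7.9. In the other DEN arrays Rspo3 read 7.49 to 8.29, Mrc1 9.17 to 10.11, Thbd 6.86 to 9.94 and Oit3 7.05 to 7.41. Arrays of other DEN groups thus reached the N750F range for all but Mrc1. The other 13 genes of the list did not pass. Of 22 tested pan-endothelial genes Esam, a junction molecule like Pecam1, fell in heterozygous liver by a log2 change of -1.27 ± 0.29 (adjusted p = 0.0485) and in N750F by -0.92 ± 0.24 (adjusted p = 0.0404), calls lost in 11 of 13 leave-outs (0.0532 to 0.358, all but the knockout-labelled arrays) and in 6 (without untreated array 1 at 0.391 or 2 at 0.0913, or N750F array 1 at 0.0676, 2 at 0.089, 3 at 0.0823 or 5 at 0.0575). Esam was the 1 gene called of the 22, where 1.4% of all genes were called in heterozygous and 6.21% in N750F liver. No gene of these lists was called between genotypes after DEN. None of the 7 tested genes of continuous and lymphatic vessels was called by limma in any comparison, where 0% to 6.21% of all genes were.

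Markers of other liver cells moved beside the endothelial genes. The mean over the 10 genes was 7.78 and 7.89 untreated, 7.46 and 7.09 in wild type after DEN, 7.38 and 6.86 in heterozygous, 7.29 to 7.98 in N750F, and 7.56 and 7.29 in knockout-labelled liver. The mean of 15 Kupffer cell and macrophage genes was 7.86 to 8.34 untreated, 7.03 to 7.14 in wild type, 7.25 to 7.35 in heterozygous, 7.64 to 8.08 in N750F and 7.46 to 7.99 in knockout-labelled liver. Stab1 and Mrc1 are made by macrophages as well. The mean of 16 stellate cell genes was 8.58 to 8.78 untreated, 7.90 to 8.29 in wild type, 8.13 to 8.41 in heterozygous, 8.34 to 8.66 in N750F and 8.48 to 8.73 in knockout-labelled liver. The hepatocyte mean was 11.09 to 11.13 untreated, 10.86 to 11.05 in wild type and 10.75 to 11.02 in heterozygous liver. It was 10.79 to 11.07 in N750F and 10.99 to 11.02 in knockout-labelled liver. Both untreated arrays thus lay above every DEN array for the hepatocyte mean. Heterozygous array 4 was the lowest, as it was for the mean over the 10 genes. These list means are not adjusted for batch, and that array is of batch 2. For the mean over the 10 genes the other batch 2 arrays were also low. Wild-type array 4 was at 7.09 and N750F arrays 4 and 5 at 7.34 and 7.29. Both untreated arrays are of batch 1, so batch and group are mixed in these means. Among the 15 Kupffer genes 3 fell in wild type (Csf1r, Lyz2 and Cd5l), where 0.689% of all genes were called, and 1 in heterozygous liver (Cd5l), where 1.4% were. In N750F, where 6.21% were called, 1 rose (Timd4) and 1 fell (C1qc). None was called in knockout-labelled liver, where 0.0869% of all genes were. Between N750F and heterozygous liver, where Stab1 and 1.64% of all genes were called, limma called 0 of the 15 Kupffer genes. Their median change was 0.58. Between N750F and wild type 2 Kupffer genes, Vsig4 and Lyz2, and the stellate gene Col3a1 rose, where 1.42% of all genes were called. In heterozygous liver, where Cdh5 and 1.4% of all genes were called, the stellate gene Reln fell by a log2 change of -1.71 ± 0.35 (adjusted p = 0.0342 in limma). The erythroid gene Slc4a1 fell there by -1.66 ± 0.31 (adjusted p = 0.0239). The stellate gene Ecm1 fell in N750F against untreated, where 6.21% of all genes were called. The neutrophil gene S100a8 fell in wild type (-2.37 ± 0.35, adjusted p = 0.0109), heterozygous (-2.18 ± 0.35, adjusted p = 0.00819) and N750F liver (-1.66 ± 0.29, adjusted p = 0.0112). It was the leukocyte gene called of 7 tested, in comparisons where 0.689%, 1.4% and 6.21% of all genes were called. The leukocyte mean was 7.14 to 7.15 untreated, 6.44 to 6.64 in wild type and 6.50 to 6.69 in heterozygous liver. It was 6.56 to 7.29 in N750F and 6.65 to 6.76 in knockout-labelled liver. The mean of 5 platelet and megakaryocyte genes was 7.86 to 8.01 untreated, 7.36 in both wild-type arrays, 7.27 to 7.28 in heterozygous, 7.23 to 7.66 in N750F and 7.67 to 7.78 in knockout-labelled liver. The part of these other cells in the changes of the 10 genes was not tested.

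**Figure D5:**
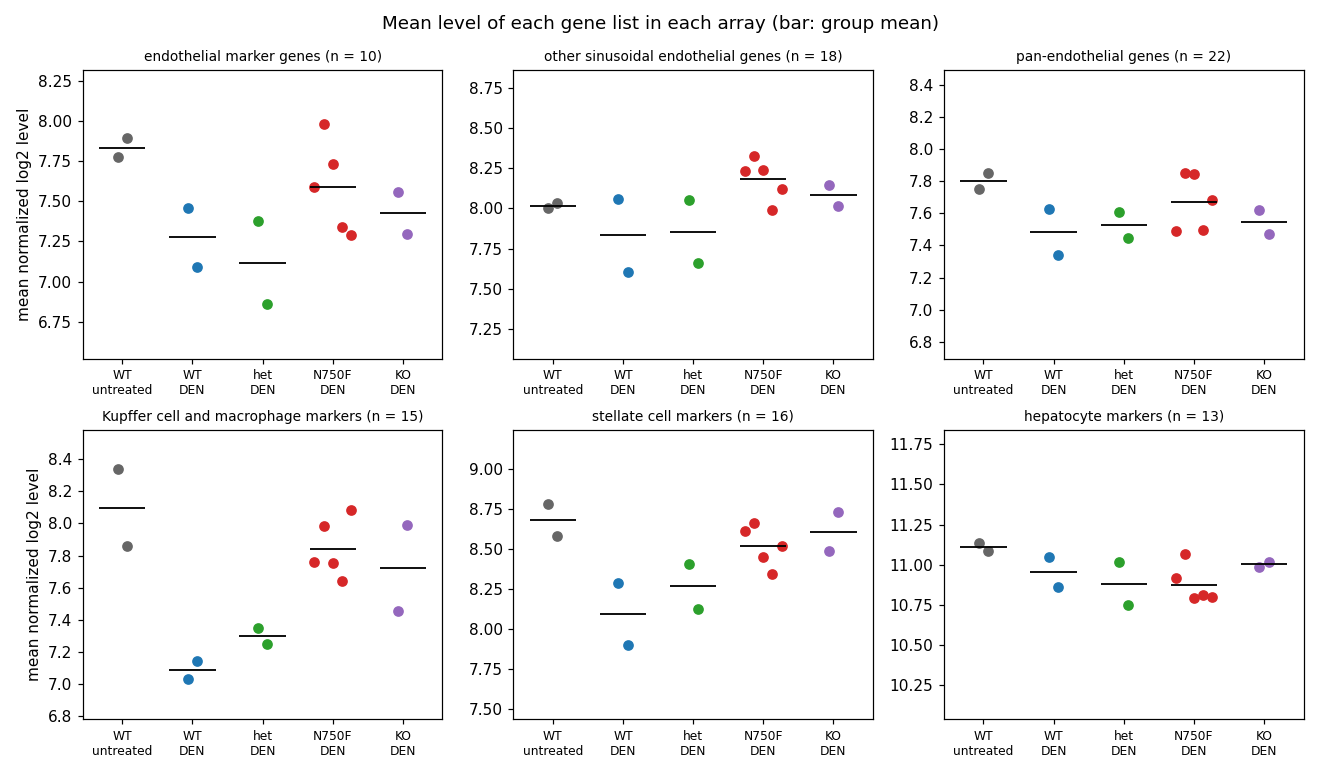
Mean normalized log2 level of the 10 endothelial marker genes and of lists of other endothelial genes and other liver cell types in each array, by group. The endothelial mean is 7.78 and 7.89 in untreated arrays and 6.86 in heterozygous array 4, and the Kupffer mean is likewise higher in untreated arrays (7.86 to 8.34) than in wild type after DEN (7.03 to 7.14).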

How the data were processed

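Total RNA from frozen liver was amplified with a whole-transcript kit and hybridised to 13 Affymetrix arrays, per the labels' protocols. The submitters' processing notes name RMA and Affymetrix Expression Console 1.1, with no role given. The deposited values are linear intensities (0.000427 to 17831 over 35556 probe sets), as the authors left them. The median per array lay between 76.9 and 83 in batch 1, and between 48.2 and 73.3 in batch 2. The genome build of the probe annotation is not given in the sources used here. Of the probe sets, 21789 carried 1 symbol, 1621 several and 12146 were not in the annotation. Symbols were updated through Entrez identifiers for 21698.

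Intensities were quantile normalized and taken as log2(intensity + 16). Fold changes on this scale understate the change of dim probe sets. The brightest probe set stood for a gene, and genes below the 25th percentile of the mean were left out. One limma 3.58.1 model in R 4.3.3 held the 5 groups and the batch (7 residual degrees of freedom), with Benjamini-Hochberg adjustment over all genes. There were 10 contrasts and 1 F test. The script was tested on simulated data. Array number limits the precision. No 2 arrays held identical values. The named genes were the members, up to 4 called genes per list and comparison described (by smallest p), and the 10 genes most like the members' mean. Tie1 and Oit3, named beyond that rule, were chosen after their values were seen. Members and lists were chosen with earlier results of these data known. Alternatives covered normalization, the offset, the filter, batch, sex, weights, probe set choice, replicate number and single arrays.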

Additional observations from a re-analysis of the deposited data

Results flagged for a closer look

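Stab2 in N750F array 4 read 9.19, away from the other 4 N750F arrays, whose nearest value was 10.02. The gap was 0.73 of the group's range, where values above 0.71 are marked for a group of 5. It was the only one of the 10 marker genes marked in that group, the only group large enough to examine. Chance marks about 1 in 20 groups. N750F arrays 4 and 5 are of batch 2 and the other 3 of batch 1, and Stab2 had a fitted batch difference of -0.43 ± 0.21. With that difference taken out, an alternative chosen after seeing the data, the gap was 0.7095 of the range, just below the limit. In the same array Stab1, Kdr and Cdh5 were also the lowest of the N750F group, at 6.01, 7.39 and 7.50, and Pecam1 was the highest, at 7.41. These values include the batch difference. With each gene's fitted batch difference taken out, array 4 stayed lowest for Stab1 only. The lowest was then array 3 for Kdr, at 7.87, and array 1 for Cdh5, at 7.89.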

How the results depend on the processing

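With 2 arrays in most groups, calls were few and rested on single arrays. Each of the calls on the 10 genes passed under 13 alternatives, of 27 for Cdh5 (heterozygous against untreated) and of 26 for Stab1 (N750F against heterozygous), with adjusted p from 0.0122 to 0.485 for Cdh5 and from 0.00914 to 0.679 for Stab1. The Cdh5 count went from 1 to 0 without normalization beyond the authors' (change -1.52), with arrays centred on their median (-1.50), with offset 1 (-1.71), without the batch term (-1.85), in batch 1 alone (-1.27) and with the Y-linked covariate (-1.58). The Stab1 count went from 1 to 0 without further normalization (change 0.96), with offset 50 (0.59), with a filter at the 50th percentile (which leaves Stab1 untested), without the batch term (0.97), in batch 1 alone (0.78) and with the Y-linked covariate (0.82). Apart from that filter, the cause was not tested. Batch 1 alone has fewer arrays and also lacks the heterozygous array that was lower for both genes, and these were not separated. With array weights 1 member was called in N750F against untreated (Cdh5, -0.70, adjusted p = 0.0369 in limma) and 2 by the test over 5 groups. The main fit called 6.21% and 2.89% of all genes in these. The shares with array weights are not given here, so these counts do not set the markers apart from other genes. Leaving out 1 array gave 0 to 1 members called in heterozygous against untreated, in N750F against heterozygous, and in N750F against knockout-labelled liver.

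With the replicate block, the labels' number as a term, 0 members were called in heterozygous against untreated (Cdh5 at -1.60, adjusted p = 0.485) and 0 in N750F against heterozygous (Stab1 at 0.84, adjusted p = 0.327). The deviations of same-numbered arrays correlated at 0.27 to 0.45 for numbers 3 and 4, which also mark the batches, and at -0.13 to 0.13 for numbers 1 and 2, so the numbers were not taken as pairing the arrays.

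Gpr182 passed under 19 (wild type), 7 (heterozygous) and 25 (N750F) of 27 alternatives, and in N750F Bmpr1a passed under 23, Rspo3 under 21, Mrc1 under 16, Bmpr2 under 15, Thbd under 10 and Oit3 under 7. No called change reversed. Of 100 member changes, 45 took the other sign under at least 1 of 27 alternatives, none of them with an unadjusted p under 0.05 (the largest at 0.41). The median change against untreated stayed below 0 in wild type (-0.59 to -0.20), heterozygous (-0.70 to -0.38) and knockout-labelled liver (-0.59 to -0.26) under all alternatives run.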
